A study of Mus musculus with 10 samples.

Results

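The 14-3-3 proteins are small adaptor proteins that work as dimers. Each subunit holds a groove that grips a phosphorylated serine or threonine in a partner protein, and binding can hold that partner in a shape, hide a surface of it or keep it in the cytosol. In platelets they are best known as partners of GPIb-alpha, the chain of the GPIb-IX-V complex that binds von Willebrand factor, and they also bind the signalling protein RGS18. Each mammalian isoform is the product of its own gene. The genes described here were taken by symbol, and they were chosen with earlier results of these data known. They are Ywhab, Ywhae, Ywhag, Ywhah, Ywhaq and Ywhaz, which encode the beta, epsilon, gamma, eta, theta and zeta isoforms. All 6 had a row among the 53819 gene symbols of each library, and all 6 passed the filter on low counts, as did 8198 genes in all. The family's remaining gene, Sfn, which encodes the epithelial sigma isoform, was outside this choice and is given beside it.

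RNA came from platelets of mice at P7, read here as postnatal day 7, and of adult mice, with 5 libraries at each age. The labels give letters A, B and C to libraries of both ages, E and I to P7 libraries alone and G and H to adult ones alone, and values below run in alphabetical order. Not given in the sources used here are strain, sex, adult age and the number of animals behind a library. The tests therefore measure the spread between these libraries, which may be technical. Libraries held 19431863 to 25029931 counts at P7 and 19541997 to 23291269 in adults. Correlations of log2 levels were 0.941 to 0.967 between libraries of the same age and 0.898 to 0.930 between ages. Levels are CPM, a gene's counts relative to the library's total after scaling by TMM factors, and a fold change is P7 over adult. A gene passed, or was called, where the quasi-likelihood test of edgeR gave a p under 0.05 after Benjamini-Hochberg adjustment over all 8198 genes.

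Because the isoforms are alike, the sequences were first examined for how well a read of 75 bases can tell them apart. The lines that follow show the Ywhah coding stretch of that length from which the best matches in the other genes differed least in sum. It was found by sliding along the Ywhah coding sequence by whole codons, and bases that differ from Ywhah are in capitals. The sequences are from the GENCODE M21 transcripts on the GRCm38 genome and read 5′ to 3′ on the coding strand, within a single coding exon each.
Ywhah: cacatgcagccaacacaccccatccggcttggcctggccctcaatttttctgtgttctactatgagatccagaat
Ywhag: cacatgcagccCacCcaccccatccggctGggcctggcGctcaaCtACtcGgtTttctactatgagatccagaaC
Ywhaz: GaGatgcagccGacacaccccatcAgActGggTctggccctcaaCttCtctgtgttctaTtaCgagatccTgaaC
Ywhaq: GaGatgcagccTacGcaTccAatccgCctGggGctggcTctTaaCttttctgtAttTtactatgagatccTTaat
Ywhab: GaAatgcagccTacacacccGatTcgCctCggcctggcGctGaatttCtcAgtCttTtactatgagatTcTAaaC
Ywhae: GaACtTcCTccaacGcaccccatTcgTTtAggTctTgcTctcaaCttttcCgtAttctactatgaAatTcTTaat

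The Ywhah stretch lies at chr5:33026944-33027018 on the plus strand and that of Ywhag at chr5:135911175-135911249 on the minus strand. The others lie at chr15:36775449-36775523 (minus) for Ywhaz, chr12:21396315-21396389 (minus) for Ywhaq, chr2:164015287-164015361 (plus) for Ywhab and chr11:75756929-75757003 (plus) for Ywhae. In this stretch Ywhag differed from Ywhah at 10 bases, Ywhaz at 13, Ywhaq at 16, Ywhab at 17 and Ywhae at 21. A single pair of genes may be closer in another stretch, which was not searched for. Over whole coding sequences, Ywhah and Ywhag were the most alike of the 15 pairs, with 78.6% identical positions, and Ywhah and Ywhae the least, with 60.1%. No window of 75 bases in the longest coding transcript of any of the 6 genes occurred unchanged in another of them.

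Copies elsewhere in the transcript set were a larger limit than the sister genes. For Ywhae, Ywhab and Ywhag, 0 windows occurred in a transcript of another gene. For Ywhah 12.1% of windows were shared with the gene model Gm12428, for Ywhaz 18.5% with 3 gene models, and for Ywhaq 32.5% with 8 other genes, among them the pseudogene Ywhaq-ps3. These other genes drew few reads beside the abundant isoforms: over the 10 libraries, the separate row of Gm12428 held 0.0397% as many counts as Ywhah, and that of Gm4202 1.04% as many as Ywhaz. Of the genes that share windows with Ywhaq, Cdk5rap2, a centrosomal protein gene of its own, held 30.8% as many counts as Ywhaq and the rest under 1% as many each. Reads that match several genes can be dropped or split, and which was done was not stated, so the levels of Ywhah, Ywhaz and above all Ywhaq are uncertain.

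Ywhah was by far the most abundant isoform transcript. Its level was 3983 CPM in P7 A, 3896 in P7 B, 4348 in P7 C, 3787 in P7 E and 5121 in P7 I, and 4943, 5071, 5847, 4934 and 4640 CPM in the adult libraries. It ranked 32nd among all genes by mean level. P7 I lay within the adult range and the other P7 libraries lay below it. The mean was 4227 ± 542 CPM at P7 and 5087 ± 453 CPM in adults (n = 5 per age, SD). The log2 fold change of Ywhah was -0.27 ± 0.12 (SE) and did not pass (edgeR adjusted p = 0.113, unadjusted 0.0419), with a 95% interval of -0.52 to -0.01. Without P7 I it was -0.35 and passed (edgeR adjusted p = 0.0285), as it did with the trend of GC content removed (-0.35, edgeR adjusted p = 0.0412).

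Ywhaz, the zeta isoform gene, was lower at P7. Its level was 1532, 1556, 1338, 1501 and 1551 CPM in the P7 libraries, against 1951, 2384, 2020, 1811 and 2021 CPM in the adult libraries. Each P7 library lay below each adult library, a pattern that 19.8% of the genes tested showed in either direction. The P7 values spread little, at a coefficient of variation of 6.07%, the smallest of the 6 genes at either age. The fold change was -0.44 ± 0.11 on the log2 scale (SE, 95% interval -0.69 to -0.20), and Ywhaz passed (edgeR adjusted p = 0.00982). Its adult level was 1.36-fold the P7 level.

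Ywhae, the epsilon isoform gene and the least like Ywhah in sequence, was the other member to pass. It measured 230, 212, 189, 198 and 305 CPM in the P7 libraries, and 304, 340.3, 380, 292 and 335 CPM in the adult libraries. P7 I lay above adult A and G, while the other P7 libraries lay below all adult ones, so the groups overlapped through that library alone. Ywhae fell by 0.54 ± 0.15 on the log2 scale (SE, 95% interval -0.87 to -0.22, edgeR adjusted p = 0.0157), and its adult level was 1.46-fold the P7 level. With the trend of GC content removed, a setting chosen after seeing the data, the log2 fold change of Ywhae was -0.37 ± 0.15 (SE) and did not pass (edgeR adjusted p = 0.0786). Its transcript had a GC content of 43.9%, the lowest of the 6.

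**Figure D1:**
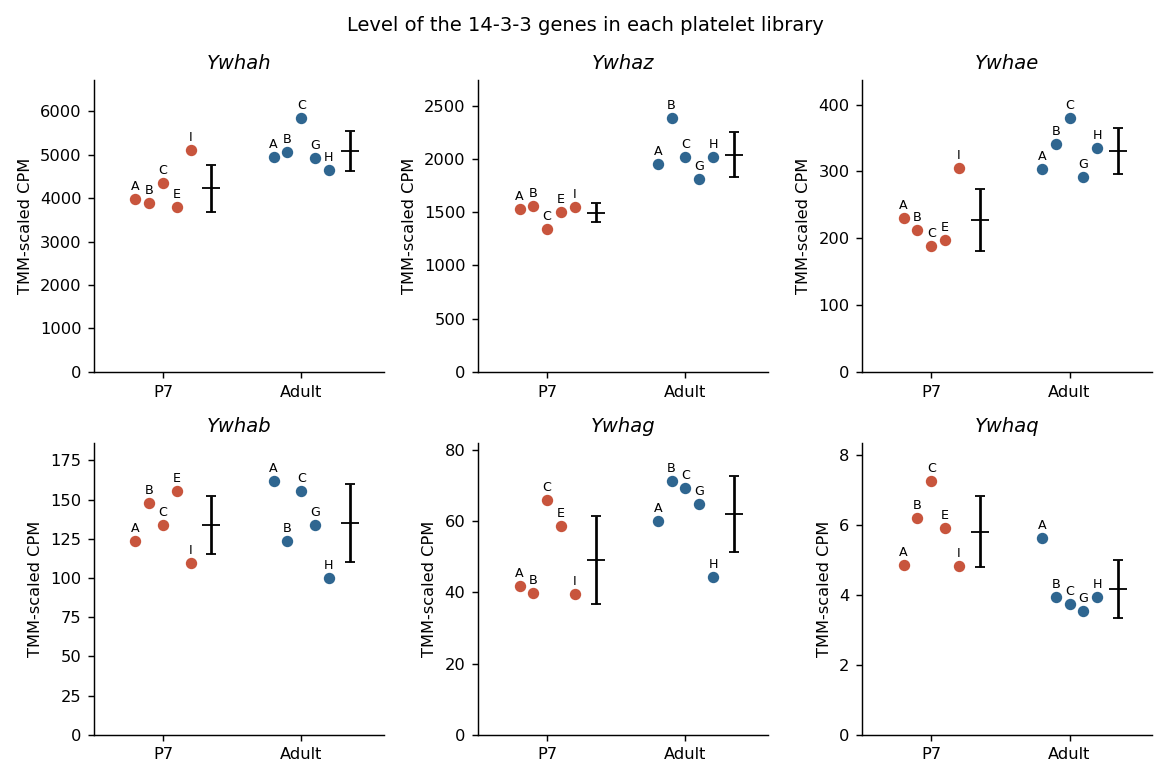
TMM-scaled CPM (vertical axis, from 0, own scale for each gene) of the 6 genes in each library, lettered by replicate, with mean and SD as bars beside the points (n = 5 each). Ywhaz is the gene whose P7 and adult points do not overlap, and P7 I is the highest P7 point for Ywhah and Ywhae.

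Ywhab, the beta isoform gene, had nearly the same mean at both ages. It ran from 109.6 CPM in P7 I to 156 CPM in P7 E, with means of 134.1 ± 18.5 CPM at P7 against 134.9 ± 24.9 CPM in adults (n = 5 per age, SD). Adult values ran from 100.2 CPM in adult H to 162 CPM in adult A, so the groups overlapped throughout. The log2 fold change was -0.01 ± 0.16 (SE, edgeR adjusted p = 0.979). Its 95% interval of -0.35 to 0.34 leaves room for a change about as large as that of Ywhah in either direction, and the sign differed between settings.

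Ywhag, the gamma isoform gene, measured 41.7, 39.7, 65.8, 58.5 and 39.4 CPM in the P7 libraries, against 59.99, 71.2, 69.2, 64.7 and 44.4 CPM in the adult libraries. P7 C and E lay within the adult range, and adult A, G and H lay within the P7 range. The log2 fold change of Ywhag was -0.34 ± 0.19 (SE, edgeR adjusted p = 0.217), with a 95% interval of -0.75 to 0.08. It was -0.51 in the 6 libraries lettered A, B or C with the letter as a replicate block, and -0.11 with the level of erythroid marker genes as a covariate, and passed in neither.

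Ywhaq, the theta isoform gene, was scarce, with 106 to 181 counts in each P7 library and 69 to 118 in each adult one. It was the only one of the 6 with a higher mean at P7, at 5.81 ± 1.02 CPM against 4.17 ± 0.833 CPM (SD, n = 5 each). Adult A, at 5.63 CPM, lay among the P7 values of 4.83 to 7.26 CPM, and the other adult libraries lay between 3.55 and 3.96 CPM. The log2 fold change of Ywhaq was 0.48 ± 0.22 (SE) and did not pass (edgeR adjusted p = 0.127, unadjusted 0.0495). Sfn was close to absent, with 1 to 11 counts in P7 libraries and 5 to 16 in adult ones. It did not pass the filter and was not tested, and 3 counts correspond to 0.120 to 0.154 CPM at these depths. The epithelial keratin and adhesion markers beside it summed to 0.281 to 0.643 CPM at P7 and 0 to 0.243 CPM in adults, with Epcam at 0 in all libraries.

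As a family, 0 of the 6 genes were higher and 2 were lower at P7. Among all genes tested, 27.7% were called in either direction and 13.9% were called lower, so a count of 2 in 6 is not far from the background. The median log2 fold change of the 6 was -0.30, against 0.05 over all genes tested. Over the 832 genes that averaged 100 CPM or more the median was -0.04, and 158 of these were called higher and 206 lower. The median size of the change, sign aside, was 0.39 for the 6, 0.53 for all genes tested and 0.40 for the 832. Summed over the 6 genes, the level was 5706 to 7131 CPM at P7 and 7144 to 8475 CPM in adults, and P7 I, the highest P7 library, nearly met adult H, the lowest adult one. In RNA from a bulk preparation, fewer cells with a transcript and less of it per cell cannot be told apart.

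Isoform shares were then compared, as each gene's percentage of the counts of all 6 in a library. Ywhah held 67.3, 66.5, 71.5, 66.4 and 71.8% in the P7 libraries, and 66.6, 63.4, 69.0, 68.2 and 64.9% in the adult libraries. Ywhaz held 25.9, 26.6, 22.0, 26.3 and 21.8% in the same P7 libraries and 26.3, 29.8, 23.8, 25.02 and 28.3% in the adult ones. The pair thus made up most of the family's counts in each library, and where Ywhah took more, as in P7 C and I, Ywhaz took less. The count of Ywhah over that of Ywhaz ran from 2.50 in P7 B to 3.30 in P7 I and from 2.13 in adult B to 2.89 in adult C. Counting error was small beside these differences if reads are taken as independent draws. The 95% Wilson intervals were at most 0.549 percentage points wide for Ywhah and 0.514 for Ywhaz. They cover counting error only, and not error from the amplification of the cDNA.

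Group means of the shares differed by less than could be called. The mean share of Ywhah was 68.7 ± 2.72% at P7 and 66.4 ± 2.28% in adults, and that of Ywhaz 24.5 ± 2.41% and 26.6 ± 2.42% (n = 5 per age, SD). Two-sided exact permutation p-values were 0.206 for Ywhah and 0.198 for Ywhaz, both 0.248 after Benjamini-Hochberg adjustment over the 6 shares. The Ywhah difference of 2.28 percentage points was 1.503 without P7 I, and the Ywhaz difference of -2.14 was -1.35 without adult B. Ywhae held 3.67 ± 0.440% at P7 and 4.31 ± 0.277% in adults (n = 5 per age, SD, exact permutation p = 0.040, adjusted 0.119). Its share in P7 I, 4.28%, lay among the adult values of 4.03 to 4.69%, and the other P7 values ran from 3.11 to 3.89%. Ywhaq held 0.0957 ± 0.0206% at P7 and 0.0548 ± 0.0124% in adults (n = 5 per age, SD, exact permutation p = 0.016, adjusted 0.0952). Its groups overlapped only in that P7 I, at 0.0678%, lay below adult A, at 0.0758%.

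Ywhab held 2.22 ± 0.457% at P7 and 1.76 ± 0.301% in adults, and Ywhag 0.808 ± 0.232% and 0.806 ± 0.111% (SD, n = 5 each, exact permutation adjusted p = 0.206 and 0.976). Thus 0 of the 6 shares passed after adjustment and 2, those of Ywhae and Ywhaq, had an unadjusted p under 0.05; the smallest p this design allows is 0.0079. Shares within a library are tied to each other, since a rise in Ywhah lowers the rest. P7 I took part in the overlap of the groups for both of those shares. For Ywhaq the overlap rested on adult A as much as on P7 I. Without P7 I the Ywhae difference of -0.64 percentage points became -0.79, and the Ywhaq difference of 0.041 became 0.048. Both then passed (exact permutation adjusted p = 0.0476 for each). With any other library left out, neither passed (exact permutation adjusted p from 0.143 to 0.238 for Ywhae and from 0.0952 to 0.190 for Ywhaq). With 1 library left out, however, the smallest exact permutation p possible rises to 0.016. A share at that p passes the adjustment over the 6 shares only if other shares are low too. Ywhaq had that unadjusted p without adult A as well as without P7 I. The adjusted values therefore cannot set P7 I apart from adult A for Ywhaq.

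**Figure D2:**
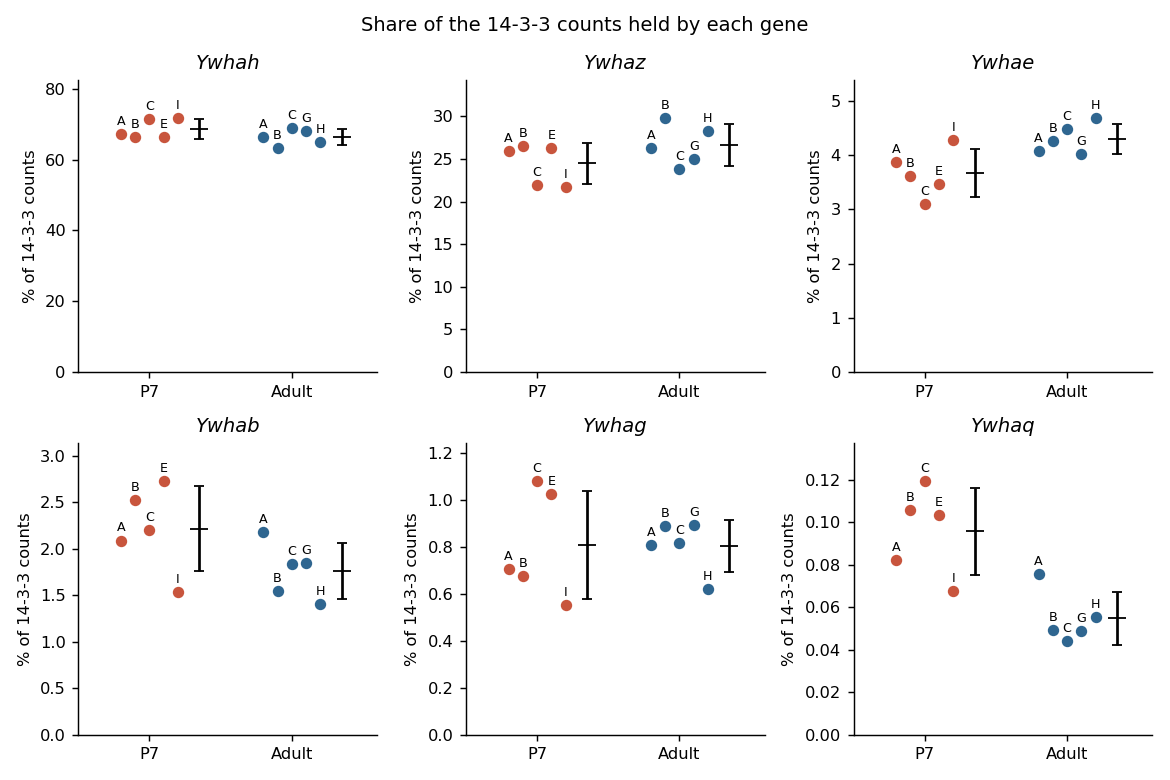
Percentage of the summed counts of the 6 genes held by each (vertical axis, from 0, own scale for each gene), 1 point per library with its letter, and mean and SD as bars (n = 5 each). Ywhah lies at 63.4 to 71.8% and Ywhaz at 21.8 to 29.8%, and P7 and adult points overlap for each gene.

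Longer transcripts give more fragments, so levels of different genes were set against each other per kilobase of the longest coding transcript in GENCODE M21, 1764 bases for Ywhah and 3288 for Ywhaz. On this scale Ywhah stood at 2396 ± 307 CPM per kilobase at P7 and 2884 ± 257 in adults, and Ywhaz at 455 ± 27.6 and 620 ± 64.4 (SD, n = 5 each). Ywhae followed at 108 and 157 CPM per kilobase, Ywhab at 44.5 and 44.8, Ywhag at 13.9 and 17.6 and Ywhaq at 2.65 and 1.90. The order was the same at both ages, and the ranges over libraries of neighbours in it did not overlap. Ywhah thus held 79.2 ± 1.98% of the family at P7 and 77.4 ± 1.72% in adults per kilobase. With the shortest complete coding transcript of each gene in place of the longest, it held 72.7% and 70.5%, and the order of the group means was the same. Ywhag was then at 30.4 and 38.4 CPM per kilobase, closer to Ywhab, and the library ranges of these genes overlapped at both ages.

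Across the 10 libraries the abundant members varied together. Log2 levels of Ywhae and Ywhah had a Pearson's r of 0.88, Ywhae and Ywhaz one of 0.86 and Ywhah and Ywhaz one of 0.64. After the mean of each age was subtracted, these values were 0.74, 0.48 and 0.03, so of the 3 only the first stayed high within ages. Ywhaq ran against Ywhae, at -0.83 and, within ages, -0.59. All these values come from the same 10 libraries, share their depth and scaling, and are a description.

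The genes whose log2 levels tracked each member most closely, among 1930 named genes averaging 20 CPM or more, were listed by the same measure. For Ywhaz these were Tnik, a kinase gene, with an r of 0.99, Erbin at 0.97 and the zinc transporter gene Slc39a6 at 0.97, and within ages the values were 0.96, 0.87 and 0.84. For Ywhae they were Tmem71, the phospholipase gene Pla2g4a and Mtmr1, at 0.96 each (0.92, 0.93 and 0.94 within ages). For Ywhah they were Cript, Ppcdc and Paip2, at 0.94, 0.93 and 0.91. For Ywhaq they were Gipc1, at 0.98, the ATP receptor gene P2rx1, at 0.96, and Gp1bb, at 0.95. Klc4, which encodes a kinesin light chain, led for Ywhab at 0.89, and Fgfr1op2 led for Ywhag at 0.82, the lowest of the leading values.

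The GPIb-IX-V complex is the platelet's receptor for von Willebrand factor, and 14-3-3 proteins bind the cytoplasmic tails of its GPIb-alpha and GPIb-beta chains. Gp1ba, which encodes GPIb-alpha, was at 784 ± 167 CPM at P7 against 719 ± 117 CPM in adults (n = 5 per age, SD), with a log2 fold change of 0.13 ± 0.16 (SE, edgeR adjusted p = 0.605) that was -0.01 with the GC trend removed. Gp1bb, which encodes GPIb-beta, rose by 1.22 ± 0.24 on the log2 scale (SE, edgeR adjusted p = 0.00172). In the 6 libraries lettered A, B or C, with the letter as a replicate block, it was 1.20 and did not pass (edgeR adjusted p = 0.0636). It measured 27.6, 38.2, 53.4, 33.6 and 31.4 CPM in the P7 libraries, and 25.3, 14.3, 12.1, 14.03 and 13.4 CPM in the adult libraries, so adult A came close to the lowest P7 library. With the GC trend removed Gp1bb was at 0.75 and still passed (edgeR adjusted p = 0.0292). Gp9, for the GPIX chain, rose by 0.88, from 1833 ± 356 CPM in adults to 3367 ± 310 CPM at P7 (SD, n = 5 per age), and was at 0.52 with the GC trend removed, where it passed too (edgeR adjusted p = 0.0117).

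The other genes of this group did not pass. Gp5, for the GPV chain, had a log2 fold change of 0.19 ± 0.14, which was -0.21 with the GC trend removed, Vwf, for the ligand, one of 0.56 ± 0.23, and Flna, for the filamin that ties GPIb-alpha to actin, one of 0.85 ± 0.35 (SE; edgeR adjusted p = 0.352, 0.0851 and 0.0988). Without P7 I, Vwf was at 0.72 and Flna at 1.04 and both passed (edgeR adjusted p = 0.00626 and 0.0143). Flna also passed without adult C (1.13, edgeR adjusted p = 0.0181), and Vwf passed in 3 and Flna in 4 of 22 other settings. In all, 2 of the 6 genes of this group were higher at P7 and 0 lower, a count near the 27.7% called among all genes tested. Their median log2 fold change was 0.70. The difference between this group and the 14-3-3 genes was not tested.

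Among 60 genes listed for proteins that 14-3-3 binds in various cells, 44 were tested, and 1 was higher and 3 were lower at P7, beside 27.7% called among all genes tested. The one that rose was Gp1bb. Rgs18, whose product limits signalling by G protein-coupled receptors in platelets and binds 14-3-3, measured 1260, 1252, 1158, 1269 and 2039 CPM in the P7 libraries. In the adult libraries it measured 3445, 3193, 2179, 3662 and 3174 CPM. All P7 libraries lay below all adult ones, though P7 I came close to adult C. Rgs18 fell by 1.16 ± 0.18 (SE, log2 scale, edgeR adjusted p = 0.000314), and by 0.53 with the GC trend removed, where it still passed (edgeR adjusted p = 0.0109).

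Wwtr1, which encodes the transcriptional co-activator TAZ, had the largest change of the named partner genes, at 4.38 ± 1.27 CPM at P7 against 27.4 ± 15.7 CPM in adults (n = 5 per age, SD). Its adult values were uneven, from 13.6 CPM in adult A to 49.9 CPM in adult H, and all lay above the P7 maximum of 5.19 CPM. Wwtr1 fell by 2.64 ± 0.37 on the log2 scale (SE, edgeR adjusted p = 0.000205). Adam17, the gene of the sheddase that cuts GPIb-alpha from the platelet surface, fell by 0.64 ± 0.20 (SE, log2 scale, edgeR adjusted p = 0.0252). Adam17 did not pass in 8 of 22 other settings. The number called lower was 5 without P7 I, and the number called higher was 2 without P7 B, P7 I or adult G. The median log2 fold change of the 44 tested partner genes was -0.15.

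Kinases that phosphorylate such binding sites and phosphatases that remove the phosphate were listed too. Of 28 tested kinase genes 3 were higher and 5 lower, beside 13.8% and 13.9% of all genes tested, so the counts were near the background, with a median log2 fold change of 0.09. Camk2d fell by 2.09, at 3.32 ± 1.28 CPM against 14.2 ± 4.70 CPM (SD, n = 5 each), and Prkcd, a protein kinase C gene, fell by 0.84, but was at -0.65 and did not pass with the erythroid covariate (edgeR adjusted p = 0.106). Among genes of the cyclic AMP-dependent kinase, the catalytic subunit gene Prkacb rose by 0.64 and the regulatory subunit gene Prkar2b fell by 0.48. Camk1 rose by 0.68. Calls of Prkacb, Camk1 and Prkar2b were lost in 8, 7 and 3 of 22 other settings, and the number of kinase genes called higher ran from 0 without P7 A to 5 without P7 I, with 1 without P7 B, P7 C, P7 E or adult G. Also called were Prkg1 and Rps6ka3, which averaged under 5 CPM and were named after their values were seen.

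Of 17 phosphatase genes, all tested, 0 were higher and 4 lower, again beside 13.8% and 13.9% of all genes tested. The number called higher was 1 or 2 in 5 of 22 other settings, among them 2 with a filter of 10 CPM and 2 with the GC trend removed. Among the genes called lower was Ppp2ca, a catalytic subunit of protein phosphatase 2A, at 114 ± 16.2 CPM at P7 against 188 ± 39.8 CPM in adults. Also called lower were the regulatory subunit gene Ppp2r2a of the same phosphatase, at 4.53 ± 0.752 and 13.02 ± 2.72 CPM, and the calcineurin regulatory subunit gene Ppp3r1, at 46.8 ± 15.6 and 84.5 ± 19.8 CPM (SD, n = 5 each). The fourth was Ppp1cb, a catalytic subunit of protein phosphatase 1, at 431 ± 58.1 and 609 ± 75.7 CPM. Log2 fold changes were -0.72, -1.52, -0.85 and -0.50 (edgeR adjusted p = 0.00560, 0.000162, 0.0211 and 0.0145). The call of Ppp3r1 was lost in 4 of 22 other settings, 1 of them without adult B (-0.72, edgeR adjusted p = 0.0583), and that of Ppp1cb with the GC trend removed (-0.18 on the log2 scale, edgeR adjusted p = 0.365). The median over the 17 genes was 0.00.

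**Figure D3:**
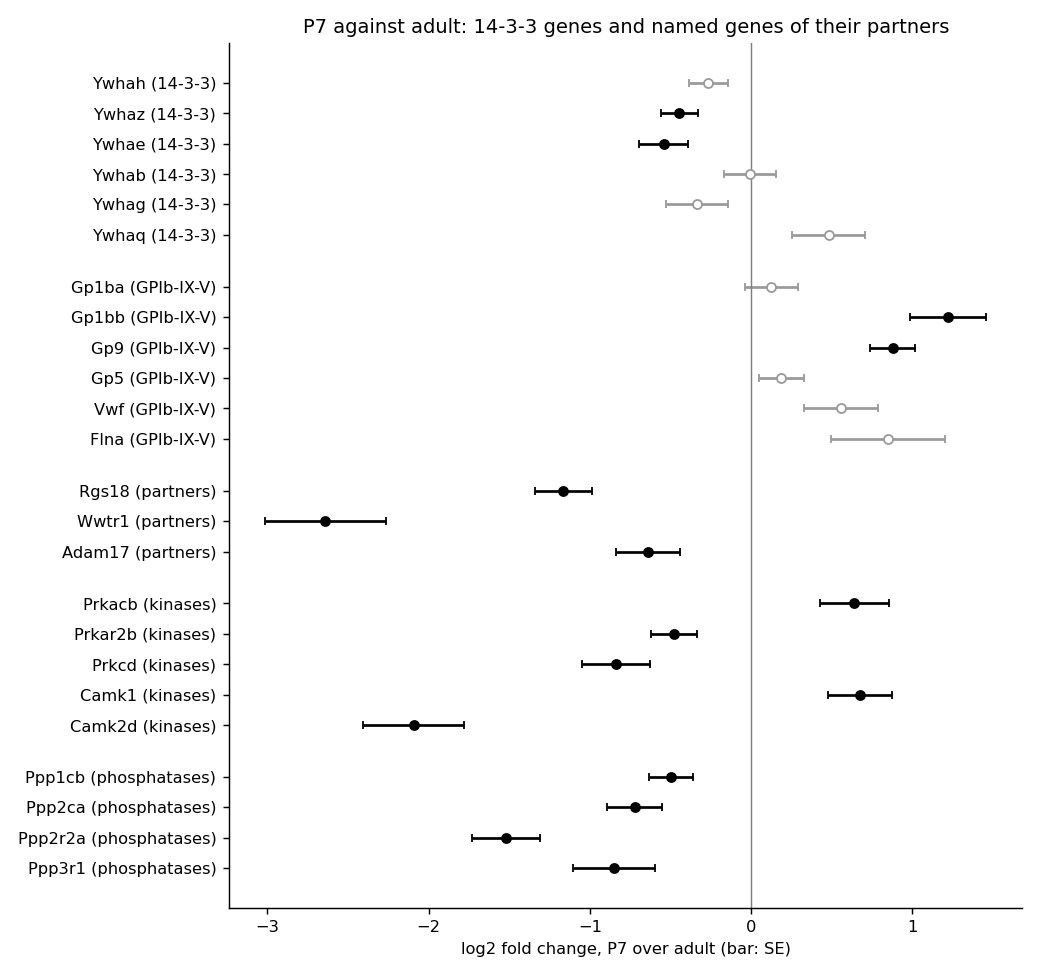
Log2 fold change, P7 over adult, with SE (horizontal axis) for the 6 14-3-3 genes, the GPIb-IX-V group and the named partner, kinase and phosphatase genes; filled points passed the test and open points did not. Ywhaz and Ywhae lie at -0.44 and -0.54, closer to 0 than Rgs18, Wwtr1 and Camk2d on the same side.

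14-3-3 genes are active in most cell types, so markers of other blood cells are given beside these results. Platelet identity genes summed to 63974 to 91485 CPM at P7 and 64342 to 97594 CPM in adults. Erythroid markers summed to 1972 to 3511 CPM at P7 and 1239 to 2726 CPM in adults, with 5 of 15 tested genes higher and 0 lower. With the erythroid level as a covariate Ywhaz was at -0.51 ± 0.14 and Ywhae at -0.67 ± 0.20 (SE), and both passed (edgeR adjusted p = 0.0261 and 0.0304). Neutrophil markers summed to 4.05 to 8.39 CPM at P7 and 1.62 to 2.05 CPM in adults, with 1 of 2 tested genes higher and Cxcr2 and Ly6g at 0 in all libraries. Monocyte markers summed to 2396 to 3748 and 2968 to 6158 CPM. Most of this was Lyz2, which fell at P7 as Ywhaz and Ywhae did (2761 ± 494 against 4359 ± 1161 CPM, SD, n = 5 each, log2 fold change -0.66, edgeR adjusted p = 0.0142). F10, listed with it, rose by 1.71, the other 2 tested did not pass, and Itgam and Cd14 averaged under 1 CPM at both ages. Lymphocyte markers summed to 11.4 to 30.2 and 10.2 to 20.4 CPM, with 1 of 3 tested genes higher and 1 lower, and endothelial markers, mostly Vwf and Pecam1, which platelets also carry, to 2494 to 5537 and 2830 to 3751 CPM, with 2 of 7 higher. The part of cells other than erythroid ones in the results was not tested.

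**Figure D4:**
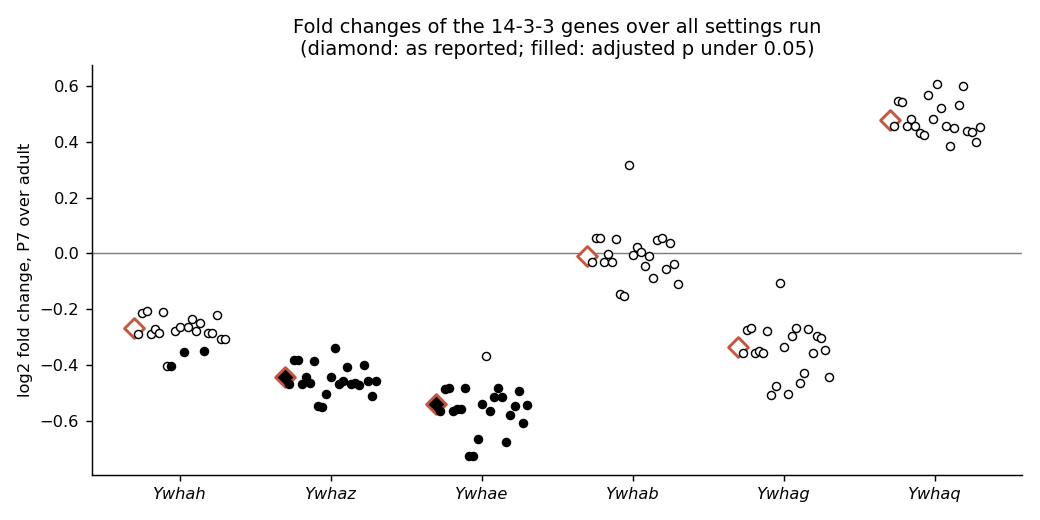
Log2 fold change, P7 over adult (vertical axis), of each of the 6 genes as reported (diamond) and under each other setting run (circles), filled where the adjusted p was under 0.05. Ywhaz is filled in every setting, from -0.55 to -0.34, and Ywhae in every setting but 1, while Ywhab lies on both sides of 0.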

How the data were processed

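The authors deposited 1 table of whole-number read counts per library, keyed by gene symbol and not normalized. Tools listed in the submitters' processing notes, without a role, are Salmon 1.5.2, featureCounts, Subread 2.0.1, STAR 2.7.9a and fastp 0.23.1. Not given in the sources used here are the genome build, the strand setting and how reads with several matches were treated. Per the labels' protocols, SMARTer amplification started from 1 ng of total RNA, and Nextera XT libraries were made from 150 pg of the cDNA and read as single ends of 75 nt, without molecular identifiers.

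Genes were kept with filterByExpr (minimum count 10, minimum total 15), scaled with TMM and tested with edgeR 4.0.16 (quasi-likelihood, robust, age as the only term; R 4.3.3), with Benjamini-Hochberg adjustment. Intervals of fold changes are 95% from the same fit. Shares used exact permutation tests over all divisions of the libraries into 5 and 5 (SciPy 1.17.1). Transcript lengths and sequences came from GENCODE M21. Alternatives were RLE, upper quartile and no scaling factors, DESeq2 1.42.0, limma-voom (limma 3.58.1), other filters, an erythroid covariate, removal of erythroid markers, a replicate block, each library left out, and, added after seeing the data, removal of the GC trend. Pearson's r used log2 CPM with a prior count of 2.

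Named genes were the 6 members, Sfn, the GPIb group, the 3 most similar genes of each member, and up to 8 called genes of each other list with the smallest p and a mean of at least 5 CPM. Members and lists were chosen with earlier results of these data known. 1 called kinase gene is counted but not reported by name here.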

Additional observations from a re-analysis of the deposited data

Results flagged for a closer look

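A library stood apart from the other 4 of its age in 7 of 64 sets of 5 values examined, where chance gives about 1 in 20. Ywhaz in P7 C, at 1338 CPM, was low against 1501 to 1556 CPM in the other P7 libraries. Ywhaq in adult A, at 5.63 CPM, and Gp1bb in the same library, at 25.3 CPM, were high, each close to or among the P7 values. Rgs18 in P7 I, at 2039 CPM, was high and Wwtr1 in P7 I, at 2.19 CPM, was low. Flna was high in adult C, at 2308 CPM, and Ppp3r1 was low in P7 C, at 19.9 CPM.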

How the results depend on the processing

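Ywhaz kept its direction and its call in 22 of 22 other settings (edgeR, DESeq2 or limma adjusted p from 0.00219 to 0.0456), and the number of 14-3-3 genes called was 2 or 3. Ywhae lost its call with the GC trend removed (-0.37). Ywhah passed with the GC trend removed (-0.35) and in the 6 libraries lettered A, B or C without the block (-0.40). Ywhab changed sign, without a call, with library size alone (0.056), upper quartile factors (0.055), a filter of 10 CPM (0.051), the erythroid covariate (0.32) and the GC trend removed (0.023). Gp1ba and Gp5 changed sign with the GC trend removed (-0.010 and -0.21). Each library left out in turn gave log2 fold changes of -0.11 to 0.054 for Ywhab and -0.35 to -0.22 for Ywhah.

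With Ywhaz left out of the shares, those of Ywhae (-1.02 percentage points) and Ywhaq (0.052) passed and that of Ywhag changed sign (-0.027); per kilobase Ywhag was at -0.0032. As log2 ratios to the other members' geometric mean, Ywhaz (-0.30) and Ywhaq (0.81) passed, and Ywhah (-0.10) and Ywhag (-0.19) changed sign. Leaving out each library gave share differences of 1.503 to 2.92 for Ywhah, -2.84 to -1.35 for Ywhaz, -0.79 to -0.50 for Ywhae, 0.035 to 0.048 for Ywhaq and -0.066 to 0.066 for Ywhag. The causes were not tested.

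The labels do not say whether same letters pair the libraries. Correlations of deviations between P7 and adult libraries of the same letter were -0.038, 0.065 and 0.0067 for A, B and C. Between different letters among these they ran from -0.0055 to 0.11. Such values cannot settle whether the letters mark pairs. With the replicate block in these 6 libraries, Ywhaz was at -0.55, Ywhae at -0.73 and Ywhah at -0.40, of which Ywhah did not pass (edgeR adjusted p = 0.0860), and 1416 genes were called against 1886 without the block. Partner genes called lower numbered 3, but 6 in DESeq2 and 7 with the GC trend removed. For 19 other named genes, 374 of 416 values kept direction and side of the threshold. Of Ywhaq, with 69 to 181 counts a library, a filter of 10 CPM gave no value.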
